A study of Mus musculus with 6 samples.

Results

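The contractile genes of peritubular myoid cells were examined in testis of Phf13 knockout and wild-type mice. Members were all probe sets whose platform gene symbol is Acta2, Actg2, Myh11, Tagln, Cnn1, Des, Mylk, Smtn, Tpm2 or Lmod1. This gave 19 probe sets for 10 genes, out of 45037 probe sets and 18193 genes measured. Affymetrix arrays measured total RNA of the whole organ from mice without Phf13 (3 arrays) and from wild-type mice (3 arrays), all aged 5 weeks. How the knockout allele was made and the strain are not stated in the labels. Nor do the labels say that each array stands for another animal, so the p-values may reflect technical spread alone. The values are log2 values, 1 for each probe set and array, and all differences below are knockout minus wild type on that scale.

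Peritubular myoid cells are flat, smooth muscle-like cells that wrap each seminiferous tubule and, by contracting, move sperm and fluid along it. Their contractile apparatus works as in other smooth muscle: calcium activates myosin light chain kinase, the phosphorylated myosin pulls on actin filaments, and tropomyosin, calponin, transgelin, leiomodin and smoothelin bind and order those filaments. Genes of this apparatus are commonly controlled by serum response factor, which binds the CArG box, together with its coactivators myocardin and the MRTF proteins. The smooth muscle of vessels uses the same genes, and several are active in other cells of the testis, so no value below can be assigned to myoid cells alone. In whole tissue, fewer cells of a type and less RNA per cell cannot be told apart.

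The Phf13 probe set had 6.71, 6.60 and 6.55 on the knockout arrays, against 9.55, 9.47 and 9.56 on the wild-type arrays, so the target went with the label on all 6. The array medians ran from 5.22 to 5.28. The arrays fell into 2 sets. The first held knockout 1, wild type 1 and wild type 2, with 18S ribosomal control means of 12.03 to 12.67. In it the title codes of wild type 2 and knockout 1 follow each other, and that of wild type 1 stands apart. Differences inside the first set are therefore not within a single run of codes. The second held knockout 2, knockout 3 and wild type 3, whose title codes follow each other, with 18S means of 9.69 to 10.71. The actin controls, which read the 3' and the 5' end of that transcript to show how whole the RNA was, differed between the ends by 0.75 to 0.89 in the first set and by 0.56 to 0.59 in the second. Both genotypes occur in both sets, and for members and lists the differences inside the sets are given beside the pooled ones, the first set's before the second's. The germ cell markers that define this tissue were bright in both genotypes, with a list mean of 11.52 to 11.62 on the knockout arrays and of 11.45 to 11.58 on the wild-type arrays.

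Acta2, Mylk and Lmod1 had 1 probe set each that was higher on all 3 knockout arrays than on any wild-type array, by 0.49, 0.43 and 0.36. The other 7 genes had overlapping groups in every probe set and differences between -0.17 and 0.16. In limma's moderated fit over all probe sets, 0 of the 19 probe sets passed an adjusted p under 0.05. Of all 45037 probe sets 0.0999% passed, 0.0555% as higher and 0.0444% as lower. At an unadjusted limma p under 0.05 there were 3 of 19, or 15.8%, against 15.1% of all probe sets, and all 3 were higher in knockout. Of all probe sets 6.81% were higher at that p and 8.31% lower. Probe sets whose groups did not overlap were also 3 of 19, or 15.8%, against 19.3% of all. Upward there were 3, or 15.8% against 8.62%, and downward 0, against 10.7%. Counted in both directions, the members' share lay near the background by either rule.

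Taking the brightest probe set of each gene, by its mean over the 6 arrays, 9 of the 10 genes lay above 0 and 1, Cnn1, lay below. Their median difference was 0.13, beside 0.01 over all 18193 genes, of which 51.3% lay above 0. The mean of the 10 genes was 7.63, 7.68 and 7.78 on knockout 1, 2 and 3, against 7.56, 7.55 and 7.45 on wild type 1, 2 and 3. These means did not overlap between the genotypes, and no test of the mean was made, because the members were chosen with results known.

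**Figure D1:**
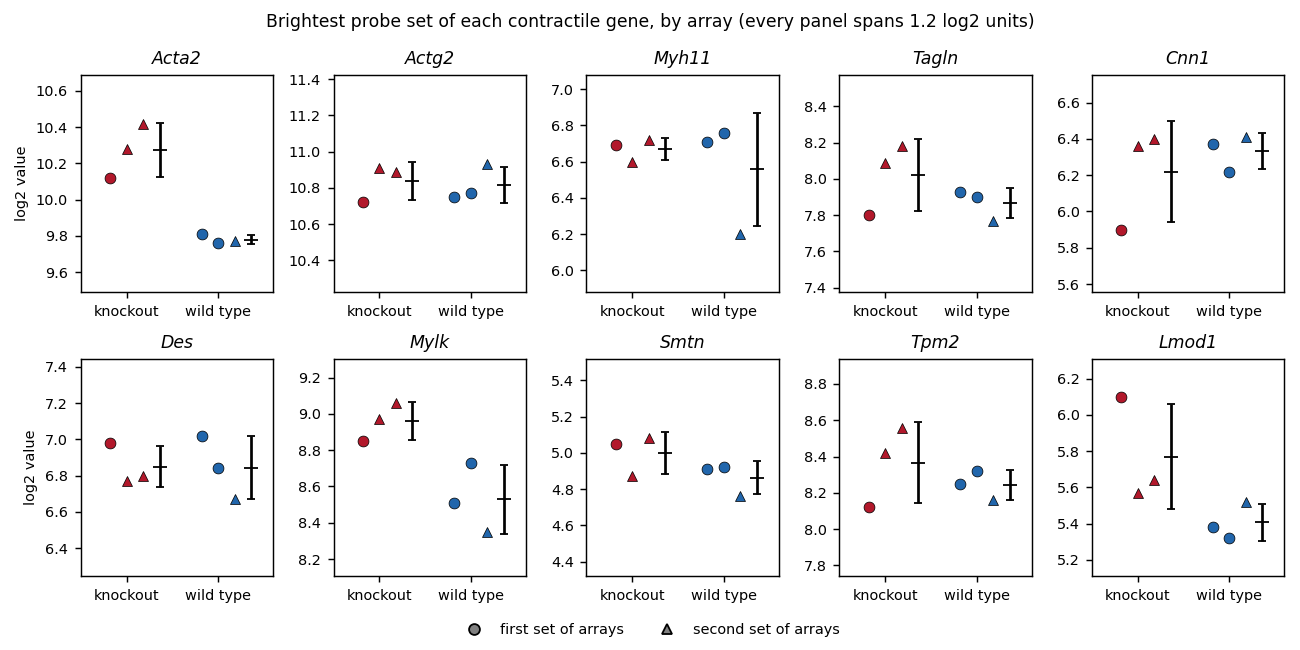
Log2 value of the brightest probe set of each contractile gene on each array, with knockout (red) left of wild type (blue), circles for the first set of arrays, triangles for the second, and the mean with its SD (n = 3 each) at the right of each group. Acta2, Mylk and Lmod1 have knockout arrays that all lie above the wild-type arrays, and in the other 7 panels the groups overlap.

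**Figure D2:**
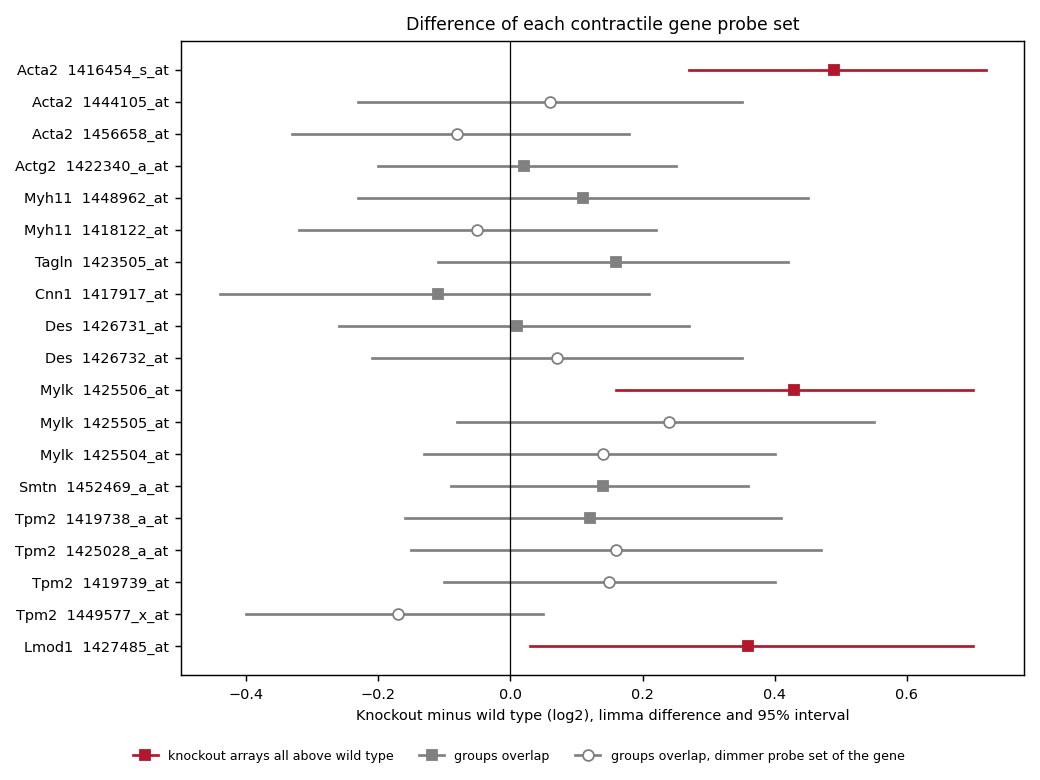
Difference, knockout minus wild type on the log2 scale, of each of the 19 probe sets, with limma's 95% interval as the line; squares mark the brightest probe set of a gene and open circles its other probe sets. The 3 intervals that lie above 0 are those of Acta2 at 0.49, Mylk at 0.43 and Lmod1 at 0.36.

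Acta2 encodes smooth muscle alpha actin, the usual marker of peritubular myoid cells, and lies on chromosome 19. Its bright probe set, 1416454_s_at, had 10.12, 10.28 and 10.42 on the knockout arrays, against 9.81, 9.76 and 9.77 on the wild-type arrays. The groups did not overlap, and the knockout arrays lay farther apart, with an SD of 0.15, against 0.03 in wild type. The difference was 0.49 (SE 0.10, 95% interval 0.27 to 0.72), or 1.41-fold, with a limma adjusted p = 0.154. The first set gave 0.33 and the second 0.58. It passed the threshold in 1 alternative fit, with array weights (limma adjusted p = 0.0209, against 0.0596 to 0.529 in the other alternatives). Those weights ran from 0.38 for knockout 1 to 2.74 for knockout 2. With them 3186 of all 45037 probe sets passed, against 45 in the main fit. The suffix of 1416454_s_at marks probes shared between transcripts, and the coding sequences of the muscle actins are nearly alike. Binding of other actin transcripts was not tested.

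The other Acta2 probe sets were dim and overlapped between genotypes. Probe set 1444105_at had 3.76, 3.43 and 3.29 in knockout, against 3.49, 3.44 and 3.38 in wild type. Probe set 1456658_at had 2.94, 3.09 and 3.10 in knockout, against 3.31, 2.98 and 3.07 in wild type. Their differences were 0.06 (95% interval -0.23 to 0.35) and -0.08 (95% interval -0.33 to 0.18). Inside the sets they were 0.29 and -0.02 for 1444105_at, and -0.21 and 0.02 for 1456658_at. The probe sets of the gene therefore disagreed, and both dim ones lay below 5.26, the median of all probe sets. Values this low were not tested against a background level.

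Actg2, on chromosome 6, encodes the gamma actin of enteric smooth muscle. In mouse testis its transcript is also known from germ cells after meiosis, so it is not a marker of myoid cells alone there. Its only probe set, 1422340_a_at, had 10.72, 10.91 and 10.89 in knockout, against 10.75, 10.77 and 10.93 in wild type. The groups overlapped almost wholly. The difference was 0.02 (SE 0.10, 95% interval -0.20 to 0.25, limma adjusted p = 0.935), and it was -0.04 and -0.03 inside the sets. A difference as large as that of Acta2 lies outside this interval. The difference between the genes was not itself tested.

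Myh11 encodes the smooth muscle myosin heavy chain, the motor of the apparatus, on chromosome 16. Its brighter probe set, 1448962_at, had 6.69, 6.60 and 6.72 in knockout, against 6.71, 6.76 and 6.20 in wild type. Wild type 3 alone was low, and the other 5 arrays lay within a narrow range. The pooled difference of 0.11 (SE 0.15, limma adjusted p = 0.758) turned to -0.07 without wild type 3. The first set gave -0.04 and the second 0.46, where wild type 3 is the only wild-type array. The dimmer probe set, 1418122_at, ran from 3.83 to 4.07 in knockout and from 3.79 to 4.16 in wild type, a difference of -0.05, with -0.01 and 0.08 inside the sets.

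Mylk encodes myosin light chain kinase, which switches smooth muscle myosin on, and is also on chromosome 16. The brightest of its 3 probe sets, 1425506_at, had 8.85, 8.97 and 9.06 in knockout, against 8.51, 8.73 and 8.35 in wild type. The groups did not overlap, although wild type 2 came close to knockout 1. The difference was 0.43 (SE 0.12, 95% interval 0.16 to 0.70), or 1.35-fold, with a limma adjusted p = 0.212. It was 0.23 inside the first set and 0.67 inside the second, and 0.34 without wild type 3.

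The second Mylk probe set, 1425505_at, had 8.65, 8.73 and 8.87 in knockout, against 8.69, 8.63 and 8.22 in wild type. Here wild type 3 was low and the other arrays overlapped. Its difference was 0.24 (95% interval -0.08 to 0.55), with -0.01 inside the first set and 0.58 inside the second. The third, 1425504_at, had 5.29, 4.89 and 5.01 in knockout, against 4.94, 4.98 and 4.86 in wild type, a difference of 0.14, with 0.33 and 0.09 inside the sets. The 3 probe sets of Mylk shared a sign and 1 of them had separate groups. Mylk makes long and short kinases and the small protein telokin from different start sites, and which of these each probe set reads was not tested.

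Lmod1, on chromosome 1, encodes leiomodin, which nucleates actin filaments in smooth muscle. Its only probe set, 1427485_at, had 6.10, 5.57 and 5.64 in knockout, against 5.38, 5.32 and 5.52 in wild type. The groups did not overlap, but knockout 1 was far above the other 5 arrays, and knockout 2 stood just above wild type 3. The difference was 0.36 (SE 0.15, 95% interval 0.03 to 0.70), or 1.29-fold, with a limma adjusted p = 0.3. It was 0.75 inside the first set and 0.09 inside the second, and it was 0.20 without knockout 1. That array was the lowest knockout array in the brightest probe sets of Acta2 and Mylk, and the highest of all arrays in 1444105_at of Acta2 and 1425504_at of Mylk.

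Promoter sequence is shown for Acta2, Mylk and Lmod1, because these are the genes whose groups did not overlap. Each line holds the 250 bases before 1 start of transcription of the gene, 5′ to 3′ on its strand, from RefSeq on GRCm38.p6. Capitals mark CATTCC on either strand, the MCAT element bound by TEAD factors, and, in Acta2, CArG boxes in which 1 of the middle bases is G or C in place of A or T.
Acta2, chr19:34255374-34255623, minus strand: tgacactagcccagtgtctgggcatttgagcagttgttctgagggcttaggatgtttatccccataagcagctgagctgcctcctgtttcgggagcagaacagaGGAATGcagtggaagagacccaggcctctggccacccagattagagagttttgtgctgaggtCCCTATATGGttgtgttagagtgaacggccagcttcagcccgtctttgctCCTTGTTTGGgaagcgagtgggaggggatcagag
Mylk, chr16:34784700-34784949, plus strand: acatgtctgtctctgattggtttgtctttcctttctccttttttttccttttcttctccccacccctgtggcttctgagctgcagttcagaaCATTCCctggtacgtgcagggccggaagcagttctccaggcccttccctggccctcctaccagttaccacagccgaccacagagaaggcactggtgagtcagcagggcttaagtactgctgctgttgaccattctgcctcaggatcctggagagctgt
Lmod1, chr1:135324563-135324812, plus strand: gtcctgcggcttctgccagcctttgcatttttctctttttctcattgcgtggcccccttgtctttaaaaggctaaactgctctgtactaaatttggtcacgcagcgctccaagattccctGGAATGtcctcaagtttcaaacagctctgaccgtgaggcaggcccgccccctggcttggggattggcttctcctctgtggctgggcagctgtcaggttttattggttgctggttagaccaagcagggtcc

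Promoter windows were held for 7 of the 10 genes: these 3, Smtn, Tpm2, Cnn1 and Des. The motifs were chosen after the sequences had been seen. CATTCC, read on both strands, was in 4 of the 7 windows, those of Acta2, Mylk, Lmod1 and Smtn, and in 12.6% of 32851 promoter windows of the same length. The CArG box with at most 1 such base was in 1 of the 7, that of Acta2, and in 8.59% of all windows. Acta2 holds it at 84 to 75 and at 34 to 25 bases before the start used. The CArG box in its strict form was in 0 of the 7 and in 1.47% of all windows. The motifs did not overlap in these windows. The start used for Mylk lies 39.8 kb inside the annotated span of the gene and is 1 of its several starts. That used for Acta2 also lies inside the annotated span of its gene, whose upper end is base 34255585. Most of the Acta2 window, with its marked motifs, is therefore inside that span. A match is a description of these letters and says nothing of binding in these mice.

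Besides leiomodin, the members whose proteins bind the actin filament are Tagln, Cnn1, Tpm2 and Smtn, and their groups overlapped in every probe set. Tagln encodes transgelin, an early and widely used smooth muscle marker, on chromosome 9. Its only probe set had 7.80, 8.09 and 8.18 in knockout, against 7.93, 7.90 and 7.77 in wild type. Knockout 2 and 3 stood above all wild-type arrays and knockout 1 did not, and the difference was 0.16 (SE 0.12, 95% interval -0.11 to 0.42, limma adjusted p = 0.559). Inside the sets it was -0.12 and 0.37.

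Cnn1 encodes calponin 1, which restrains the myosin motor and marks mature smooth muscle, on the same chromosome. It had 5.90, 6.36 and 6.40 in knockout, against 6.37, 6.22 and 6.41 in wild type. Knockout 1 alone was low, the reverse of its place for Lmod1. The difference was -0.11 (SE 0.14, 95% interval -0.44 to 0.21, limma adjusted p = 0.744), which turned to 0.05 without knockout 1. Inside the sets it was -0.39 and -0.03.

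Tpm2 encodes beta tropomyosin, which lies along the actin filament, and is on chromosome 4 like Phf13. The brightest of its 4 probe sets, 1419738_a_at, had 8.12, 8.42 and 8.56 in knockout, against 8.25, 8.32 and 8.16 in wild type. The next, 1425028_a_at, had 6.99, 7.26 and 7.52 in knockout, against 7.14, 7.15 and 7.01 in wild type. In both, knockout 1 was the lowest array of all, and knockout 2 and 3 were the highest. Their differences were 0.12 (95% interval -0.16 to 0.41) and 0.16 (95% interval -0.15 to 0.47), with -0.17 and -0.15 inside the first set and 0.33 and 0.38 inside the second. The dim probe sets disagreed in sign: 1419739_at differed by 0.15, with 0.08 and 0.29 inside the sets, and 1449577_x_at by -0.17, with -0.22 and -0.17. The last is of a type whose probes can bind other transcripts.

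Smtn encodes smoothelin, a protein of contractile smooth muscle, on chromosome 11. Its probe set had 5.05, 4.87 and 5.08 in knockout, against 4.91, 4.92 and 4.76 in wild type. Knockout 2 lay among the wild-type arrays. The difference was 0.14 (SE 0.10, 95% interval -0.09 to 0.36, limma adjusted p = 0.542), with 0.13 inside the first set and 0.21 inside the second.

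Des encodes desmin, the muscle intermediate filament, on chromosome 1. Its brighter probe set, 1426731_at, had 6.98, 6.77 and 6.80 in knockout, against 7.02, 6.84 and 6.67 in wild type. The highest array was wild type 1 and the lowest wild type 3, so the wild-type arrays enclosed the knockout arrays. The difference was 0.01 (SE 0.11, 95% interval -0.26 to 0.27, limma adjusted p = 0.985), with 0.05 and 0.12 inside the sets. The dimmer probe set, 1426732_at, ran from 3.79 to 3.97 in knockout and from 3.59 to 4.01 in wild type, a difference of 0.07 that was 0.30 in the first set and -0.21 in the second.

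Some arrays were the extreme ones more often than others. Wild type 3 was the lowest array in 9 of the 19 probe sets, and it was the lowest in 14.4% of all probe sets. Knockout 3 was the highest in 8 of 19, against 17% of all. Knockout 1 was the lowest in 6 of 19, against 19.7% of all, and the highest in 3, against 20.3% of all. With 1 array left out at a time, the median difference of the 10 genes stayed between 0.08 and 0.17.

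Inside the first set, 5 of the 10 genes lay above 0 and 5 below, with a median of 0.01. Inside the second, 8 lay above 0 and 2 below, with a median of 0.27. Over all genes the medians were -0.02 in each set. Acta2, Mylk, Smtn, Des and Lmod1 kept a positive difference in both sets. Tagln, Tpm2 and Myh11 were below 0 in the first set and above 0 in the second. The sets differ in the 18S and actin controls, and each holds 1 array of one of the genotypes. The part of these in the differences was not tested.

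**Figure D3:**
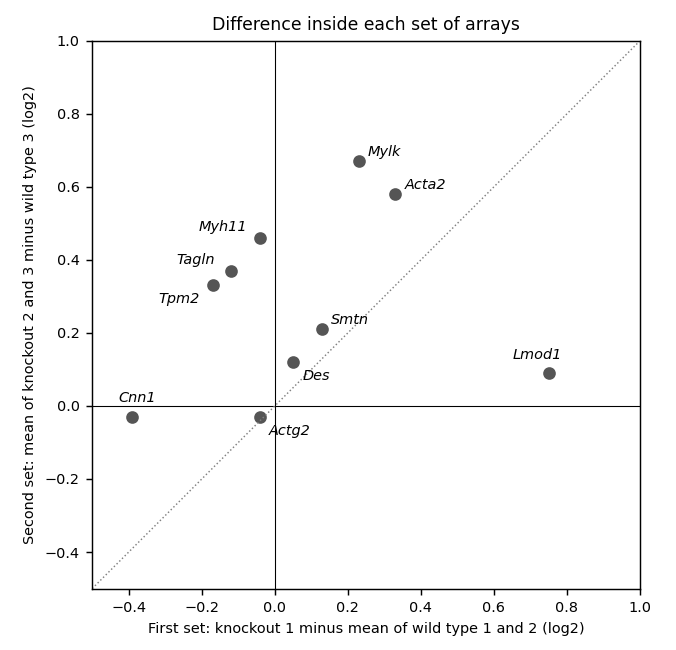
Difference of the brightest probe set of each gene in the first set (x axis, log2) and in the second (y axis, log2), with equal values on the dotted line. Mylk and Acta2 lie above 0 on both axes, Myh11, Tagln and Tpm2 only on the y axis, Cnn1 is at -0.39 and -0.03, and Lmod1 at 0.75 and 0.09.

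Other genes of smooth muscle contraction were read from lists chosen with earlier results of these data known. Among 28 other genes of actomyosin and its anchors, 0 passed the adjusted limma threshold and the median difference was 0.20. At an unadjusted limma p under 0.05, 9 were higher and 0 lower, against 6.81% and 8.31% of all probe sets. Groups did not overlap upward in 7 and downward in 3, against 8.62% and 10.7% of all probe sets. The list counts use the brightest probe set of each gene, while the background holds all probe sets, bright and dim. In a fit of the probe sets above the median level, 22.3% had an unadjusted limma p under 0.05, against 15.1% of all. The shares are therefore not of like sets, here and for the lists below. Its largest differences were those of Pdlim3, a Z-line protein gene, at 0.59 (SE 0.15), Vim, encoding vimentin, at 0.54 (SE 0.11), and Dstn, encoding the actin-severing protein destrin, at 0.52 (SE 0.13). Vimentin is also the intermediate filament of Sertoli cells and stroma. The Vim probe set used is of the type whose probes can bind other transcripts, and the other Vim probe sets differed by 0.40 and 0.58. Inside the first and second set the list's medians were 0.04 and 0.17.

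Receptors and channels that signal to the apparatus counted 15 genes, of which 0 passed, with a median of 0.18, and with 0.04 and 0.12 inside the sets. Of these genes 10 lay below the median level of all probe sets. At an unadjusted limma p under 0.05, 3 were higher and 0 lower, against 6.81% and 8.31% of all probe sets. Oxtr, the oxytocin receptor gene, had 5.52, 5.78 and 5.92 in knockout, against 5.43, 5.45 and 5.12 in wild type. Its groups did not overlap, with a difference of 0.41 (SE 0.14), which was 0.08 in the first set and 0.73 in the second. Its dimmer probe set differed by 0.02. Avpr1a, the vasopressin V1a receptor gene, had 4.18, 4.11 and 4.32 in knockout, against 3.69, 3.68 and 3.77 in wild type. These groups were well apart, at a low level, with differences of 0.49 and 0.44 inside the sets. Its other probe set differed by 0.22 (SE 0.12). Gucy1a1, a subunit gene of the nitric oxide receptor guanylate cyclase, differed by 0.65 (SE 0.23), with 0.03 in the first set and 1.10 in the second, and by 0.14 and 0.15 in its other probe sets.

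Of 14 regulator genes for serum response factor, myocardin, the MRTF coactivators, TEAD and TGF-beta signalling, 5 lay above 0 and 9 below, with a median of -0.04, and with -0.07 and 0.01 inside the sets. Groups did not overlap upward in 2 and downward in 2, against 8.62% and 10.7% of all probe sets. At an unadjusted limma p under 0.05, 0 were higher and 1 lower, against 6.81% and 8.31% of all probe sets. The lower gene was Mrtfa, which encodes the actin-regulated coactivator MRTF-A. It had 7.23, 7.48 and 7.20 in knockout, against 7.83, 7.73 and 7.71 in wild type. All 3 knockout arrays lay below all wild-type arrays, by -0.45 (SE 0.10, limma adjusted p = 0.185), with -0.55 and -0.37 inside the sets. Mrtfa has 1 probe set with this symbol. Tgfbr2 and Smad3, the next by size, differed by 0.31 (SE 0.17) and 0.15 (SE 0.08). The brightest Smad3 probe set, from 6.95 to 7.07 in knockout and from 6.81 to 6.90 in wild type, did not overlap either. The dimmer probe sets differed by 0.05 and 0.13 for Tgfbr2 and by 0.06 and 0.07 for Smad3, whose dimmer ones overlapped.

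Paralogs of the members are forms of the same protein families in muscle of other kinds and in other cells. The 22 genes had a median of 0.11, with 0.04 and 0.09 inside the sets. The lists share genes: Tpm1, Tpm4, Myh9, Myh10 and Vim are also among the actomyosin genes above. Acta1 and Actc1 are also in the skeletal and cardiac muscle list below. Of the 22 genes 0 passed. At an unadjusted limma p under 0.05 there were 7 higher and 0 lower, against 6.81% and 8.31% of all probe sets. Groups did not overlap in 7, all upward, against 8.62% of all probe sets upward and 10.7% downward. Cnn3, the acidic calponin gene, differed by 0.50 (SE 0.11), and its 5 other probe sets by 0.34 to 0.96. The smooth muscle form Cnn1 differed by -0.11, as given above. Tpm4 differed by 0.47 (SE 0.20), with 0.04 in the first set and 0.64 in the second.

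Markers of cells that carry contractile genes, or that lie near them, were measured beside these. The list of peritubular myoid and stromal genes without contractile members, 11 genes, had a median of 0.38, with -0.17 in the first set and 0.79 in the second. In it 4 genes were higher and 0 lower by an unadjusted limma p under 0.05, against 6.81% and 8.31% of all probe sets. In this list 0 passed the adjusted threshold. Its list mean was 7.48 to 7.94 on the knockout arrays and 7.10 to 7.55 on the wild-type arrays, so the genotypes overlapped. The largest differences were those of Tcf21, Dcn and Pdgfra, at 1.00 (SE 0.24), 0.95 (SE 0.17) and 0.55 (SE 0.12). Tcf21 is a transcription factor gene of stromal progenitors, and Dcn is the decorin gene. Their dimmer probe sets differed by less, Tcf21 by 0.24, Dcn by 0.11 and Pdgfra by 0.40 and 0.10. The bright Dcn probe set had 9.85, 10.46 and 10.51 in knockout, against 9.32, 9.38 and 9.28 in wild type. As for Acta2, knockout 1 was the lowest knockout array in the brightest probe sets of these 3 genes and still stood above wild type.

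The Sertoli cell list had 10 of 10 genes above 0 and a median of 0.42, with 0.36 and 0.41 inside the sets. Its mean was 8.51 to 8.66 on the knockout arrays, against 8.17 to 8.21 on the wild-type arrays. At an unadjusted limma p under 0.05, 7 were higher and 0 lower, against 6.81% and 8.31% of all probe sets. Of the 10 genes 0 passed the adjusted threshold. The 5 Leydig cell genes had a median of 0.28, with -0.09 in the first set and 0.34 in the second. Their list means were 9.00 to 9.50 in knockout and 8.80 to 9.12 in wild type. All 5 lay above 0, with 2 higher and 0 lower at that unadjusted p, and 0 passed the adjusted threshold. Markers of vessel smooth muscle and pericytes, 10 genes, had a median of 0.11. At an unadjusted limma p under 0.05 there were 0 in either direction (smallest limma adjusted p = 0.359), against 15.1% of all probe sets. Their medians were 0.13 and 0.10 inside the sets, and their list mean was 5.33 to 5.48 in knockout, against 5.33 to 5.38 in wild type. The 8 endothelial genes had a median of 0.04, with -0.06 and 0.10 inside the sets, and list means of 5.09 to 5.30 in knockout and 5.09 to 5.18 in wild type. Below the median level of all probe sets lay 5 of the 10 vessel genes and 5 of the 8 endothelial genes. It was 0 for the Sertoli and Leydig genes and 1 of the 11 stromal genes, so the lists are not alike in level.

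Markers of neighbouring tissues were also read. The 12 skeletal and cardiac muscle genes had a median of 0.05, with 0.05 and -0.04 inside the sets, and list means of 4.73 to 4.86 in knockout and 4.69 to 4.83 in wild type. Actc1 and Myh1 were higher and Tnnc2 was lower at an unadjusted limma p under 0.05, against 6.81% and 8.31% of all probe sets. Of the 12 genes 0 passed the adjusted threshold. The 5 epididymis genes had a median of 0.08, with 0.23 in the first set and -0.26 in the second, and list means of 4.03 to 4.16 in knockout and 3.91 to 4.18 in wild type. The 4 adipose genes had a median of 0.28, with 0.23 and 0.24 inside the sets. Their list means were 5.44 to 5.49 in knockout and 5.15 to 5.28 in wild type. All 4 lay above 0, with 2 higher and 0 lower at an unadjusted limma p under 0.05, and 0 passed the adjusted threshold. Below the median level of all probe sets lay 9 of the 12 muscle genes, 4 of the 5 epididymis genes and 2 of the 4 adipose genes. Germ cell genes, 10 in all, had a median of 0.04, with 0.03 and 0.00 inside the sets. On this scale no marker stands at 0, so absence of a cell type cannot be read from these values, and the part of any of these lists in the differences of the contractile genes was not tested.

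**Figure D4:**
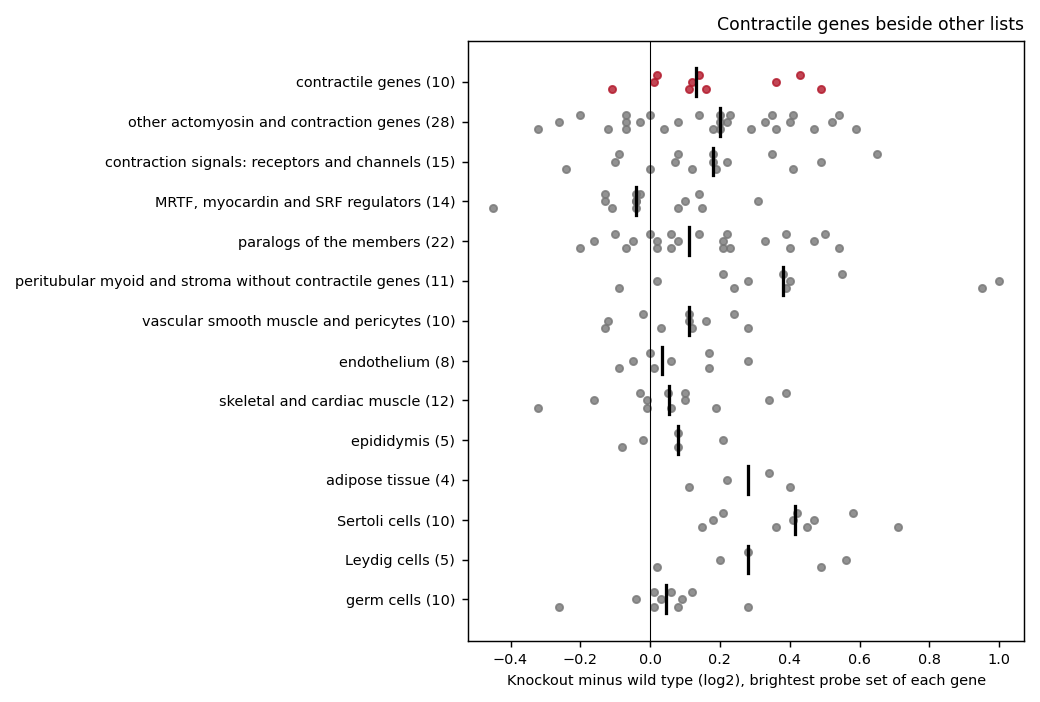
Difference of each gene's brightest probe set (x axis, log2, knockout minus wild type) for the 10 contractile genes in red and for the other lists in grey, with the number of genes in brackets and the list's median as a black bar. The contractile genes, with a median of 0.13, spread from -0.11 to 0.49; the median was 0.42 in the Sertoli list and 0.38 in the other myoid and stromal genes.

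The profile of the 10 genes over the arrays, each gene centred on its own mean and then averaged, stood at 0.02, 0.07 and 0.16 on knockout 1, 2 and 3, against -0.05, -0.06 and -0.16 on wild type 1, 2 and 3. Among 2995 other genes that were above the median level and varied by an SD of at least 0.2, the 6 most like it by Pearson correlation over the 6 arrays were Tmem65 (1.00), Acss1 (0.99), Bclaf3 (0.99), Rhoj (0.98), Oxtr (0.98) and Dmrta1 (0.98). With 6 arrays that share genotype and set, such a likeness is a description only. Wild type 3 was the lowest and knockout 3 the highest array for all 6, as in the profile by which they were picked. Rhoj, which encodes a small GTPase known from endothelium, had 6.27, 6.45 and 6.69 in knockout, against 6.04, 6.05 and 5.90 in wild type. Their differences ran from 0.39 for Tmem65 to 0.55 for Dmrta1, and each was smaller in the first set than in the second. The choice by this profile and by the SD limit favours such values, so they are no separate result.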

How the data were processed

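The authors deposited 1 value per probe set and array, which the values themselves show to be on a log2 scale. Per the submitters' processing notes, the software was Affymetrix Expression Console 1.4.1. No source used here states its summarization, its normalization or a genome build. Of 45101 probe sets, 64 Affymetrix controls were left out and 45037 tested without a filter; 11 of the 19 member probe sets lay above the median level of 5.26. GEO's platform annotation gave 1 symbol for 34945 probe sets, several for 932 and none for 9160. Limma 3.58.1 in R 4.3.3 (lmFit on genotype, eBayes, two-sided, Benjamini-Hochberg over all probe sets, threshold 0.05) gave every p. In data simulated with the probe sets' own means and spread, 8 of 50 planted differences of 0.5 passed the threshold. For planted differences of 1, 2 and 3 it was 37, 47 and 50 of 50. A real difference near 0.49, the largest among the members, can therefore fail to pass. Levels were not compared between probe sets. The probe set with the highest mean stood for a gene. All members were named, and the 6 genes most alike in profile. The 3 largest differences were named for the actomyosin, receptor, regulator, paralog, stromal and muscle lists. From the other lists no gene was named. Members and lists were chosen with earlier results of these data known. Promoters and chromosomes came from RefSeq, GRCm38.p6. The number of arrays limits the precision. Alternatives were blocks, scaling, moderation, array weights, a level filter and each array left out.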

Additional observations from a re-analysis of the deposited data

How the results depend on the processing

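The count of member probe sets past the threshold stayed at 0 in all alternatives but array weights, where it was 1, Acta2. The median of the 10 genes ran from 0.01 inside the first set of arrays to 0.27 inside the second, over 17 alternatives. The fit above the median level held 9 of the 10, without Smtn. Of all probe sets 45 passed; 28 passed with the replicate block, 16 with the title code runs as a block, 79 among probe sets above the median level, 110 with an intensity trend and robust moderation and 3186 with array weights. Leaving out 1 array gave between 12 and 1176, the highest without wild type 3, and 166 without knockout 1. Same-numbered arrays are not shown to be paired. Their deviations correlated at 0.26, 0.07 and 0.12, and those of arrays with unlike numbers at -0.2 to 0.13. The replicate block changed no call among the members, of which 0 passed in either fit. Over 14 alternative fits, 11 of the 19 probe sets never turned in sign. The fit above the median level, among the 14, lacks the 8 member probe sets below that level. With the title code runs as a block Actg2 turned to -0.04, Myh11 1418122_at to 0.07 and Des 1426732_at to -0.03, and with the last run as a block Actg2 to -0.04 and Myh11 1418122_at to 0.04. With array weights Acta2 1444105_at turned to -0.02, Cnn1 to 0.04 and Des 1426731_at to -0.05. Leaving out 1 array, Acta2 1444105_at ran from -0.08 to 0.16, Acta2 1456658_at from -0.15 to 0.02, Actg2 from -0.01 to 0.08, Myh11 1448962_at from -0.07 to 0.21, Myh11 1418122_at from -0.14 to 0.04, Cnn1 from -0.20 to 0.05, Des 1426731_at from -0.08 to 0.10 and Des 1426732_at from -0.03 to 0.18. In these fits the values that turned were at most 0.08 in size after turning. Inside single sets larger ones turned: in the first set Tagln was at -0.12 and Tpm2 at -0.17 and -0.15, and in the second Des 1426732_at was at -0.21. The cause was not tested.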
